A study of Mus musculus with 65 samples.

Results

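Binding sites of LDB1 were set against those of the cohesin subunit RAD21 in untreated cells of the LDB1-AID subline of G1E-ER4, a mouse erythroblast line. The members are all 10729 LDB1 peaks and all 33160 RAD21 peaks of these cells on chromosomes 1 to 19 and X, which is 43889 of the 143220 peaks in the 9 peak sets used here. A peak was put in the shared class when an overlap of 1 bp or more joined it to a peak of the other protein. This rule split the LDB1 peaks into 2697 with RAD21 and 8032 without it, and the RAD21 peaks into 2701 with LDB1 and 30459 without it.

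The study mapped chromatin-bound proteins by ChIP-seq, in which DNA bound by a protein is pulled down with an antibody and sequenced. In the LDB1-AID subline a degron tag on LDB1 makes cells destroy the protein once auxin is added, and in the SMC3-AID subline the tag sits on the cohesin subunit SMC3. The LDB1, RAD21, CTCF and YY1 sets of untreated LDB1-AID cells (0 h of auxin) each combine 2 replicates. The LDB1 set of LDB1-AID cells treated with auxin for 4 h also combines 2, and the LDB1 and RAD21 sets of untreated and auxin-treated SMC3-AID cells combine 3 each. G1E-ER4 cells lack their own GATA1 and carry GATA1 fused to an estrogen receptor domain. Whether estradiol was given, and how many clones make up a subline, is not given in the sources used here. "Untreated" therefore means without auxin, and LDB1 carries the degron tag in every LDB1-AID set. No RNA was measured, so the erythroblast label was not checked against markers.

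LDB1 does not bind DNA itself. In red cell precursors it is brought to enhancers and promoters by a complex with GATA1, TAL1 and LMO2, and it can dimerise, which is how it is known to bring distant sites together. Cohesin is a ring of SMC1, SMC3 and RAD21 that extrudes loops of chromatin and comes to rest mostly where CTCF is bound, but it is also found at active enhancers. YY1 is a DNA-binding protein of active promoters and enhancers that has also been linked to looping.

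All peaks were 400 bp wide and carried no height, so 2 peaks overlapped when their midpoints lay at most 399 bp apart. Since replicates had been combined before deposit, the spread between replicates cannot be given, and the depth behind the peaks is unknown. Intervals are 95% Wilson intervals, or order-statistic intervals for medians, and cover counting error only. Fisher's exact tests were two-sided, with Benjamini-Hochberg adjustment over 10 class comparisons. Neighbouring peaks are not independent and peaks are not replicates of a condition, so these p-values compare the lists, and the number of the 20 chromosomes with the same direction is given beside them.

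Overlap of LDB1 with RAD21 was a minority state for both proteins, and it was close to 1 to 1. RAD21 was present at 25.1% of LDB1 peaks (24.3 to 26.0), and LDB1 at 8.15% of RAD21 peaks (7.86 to 8.44). Of the shared LDB1 peaks, 2692 touched 1 RAD21 peak and 5 touched 2, and 1 RAD21 peak touched 2 LDB1 peaks, which gave 2702 pairs. By chromosome, the share of LDB1 peaks with RAD21 ranged from 19% on X to 33.2% on chromosome 16, with a median of 24%. The share of RAD21 peaks with LDB1 ranged from 4.84% on X to 10.6% on chromosome 13. X was thus the lowest chromosome from both sides, with 37 of only 195 LDB1 peaks shared. The interval of this LDB1 share on X (14.1 to 25.1) overlaps that of chromosome 4, at 20.1% (17.1 to 23.5).

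In the LDB1-AID sets, the RAD21 peaks that LDB1 shared were mostly not CTCF sites. CTCF lay at 80.9% of all RAD21 peaks, but at 627 of the 2701 with LDB1 (23.2%, 21.7 to 24.8) against 26206 of the 30459 without it (86.0%, 85.6 to 86.4). The odds ratio was 0.0491 (0.0446 to 0.0540), the share was lower in the shared class on all 20 chromosomes, and the p of Fisher's exact test was below the smallest number the software can represent. With peaks up to 1 kb apart counted as overlapping, both for LDB1 with RAD21 and for CTCF with RAD21, the odds ratio was 0.0767. RAD21 of untreated SMC3-AID cells was found at 277 of the 627 shared RAD21 peaks with CTCF (44.2%). It was found at 209 of the 2074 without CTCF (10.1%). Among shared RAD21 peaks found in both sublines, those with CTCF were thus the larger group. Read the other way, LDB1 was present at 2.34% of the RAD21 peaks with CTCF and at 32.8% of those without it (31.6 to 33.9). From the LDB1 side, 628 of the 2697 shared peaks (23.3%) met a RAD21 peak that also carried CTCF, and 2069 (76.7%) met one that did not. CTCF itself overlapped 7.4% of all LDB1 peaks, with 19.9% in the class with RAD21 and 3.20% in the class without (odds ratio 7.52, 6.43 to 8.79, adjusted p = 1.24e-152 in Fisher's exact test, higher on 20 of 20 chromosomes). With the RAD21 set of untreated SMC3-AID cells this odds ratio was 14.5.

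The midpoints of shared LDB1 and RAD21 peaks lay close together. The median offset was 83 bp (78 to 86), with quartiles at 37 and 160 bp, and 58.0% of the pairs were within 100 bp (56.2 to 59.9). RAD21 lay to the right of LDB1 at 49% of shared peaks, and the signed offset averaged -5.54 bp with an SD of 147 bp over the 2697 peaks. RAD21 thus lay on either side of LDB1 about equally often. By chromosome the median offset ran from 51 bp on X (37 shared peaks) to 110 bp on chromosome 17 (85 shared peaks).

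Other pairs of sets from the same cells place this offset on a scale. RAD21 and CTCF, the closest of the pairs of different proteins compared here, had a median offset of 55 bp (54 to 56) over 26833 RAD21 peaks. LDB1 and YY1 were 120 bp apart (112 to 125, 2190 LDB1 peaks), and YY1 and RAD21 138 bp (132 to 142, 3540 YY1 peaks). LDB1 and CTCF were 192 bp apart (181 to 209, 794 LDB1 peaks), close to the 200 bp that an even spread of offsets over the overlap window gives. LDB1 with RAD21 thus lay between RAD21 with CTCF and LDB1 with YY1. The positional scatter of 1 protein mapped in both untreated sublines was smaller than any of these, with medians of 25 bp for LDB1 (7192 peaks) and 34 bp for RAD21 (14378 peaks).

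**Figure D1:**
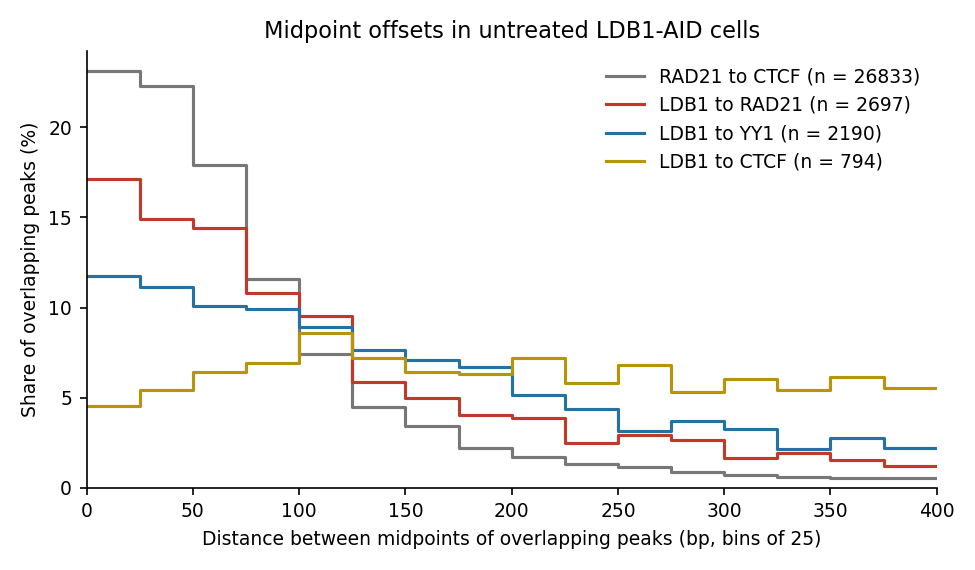
Distance between midpoints of overlapping peaks in untreated LDB1-AID cells, in bins of 25 bp (x axis), as a percent of the overlapping peaks of each pair of proteins (y axis). Each line is 1 pair of sets. The LDB1 to RAD21 line is highest in its first bin, at 17.1%, and there lies between RAD21 to CTCF (median 55 bp) and LDB1 to YY1 (median 120 bp), while LDB1 to CTCF is nearly flat.

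The offset differed with CTCF at the RAD21 partner. Where the RAD21 peak had no CTCF, the median offset to LDB1 was 70 bp (66 to 74), and 64.1% of 2069 pairs were within 100 bp. Where it carried CTCF, the median was 141 bp (123 to 164), and 38.1% of 628 pairs were within 100 bp. The difference in shares was 26.0 percentage points (21.6 to 30.3, odds ratio 2.90, 2.42 to 3.49, adjusted p = 3.11e-30 over 2 offset comparisons in Fisher's exact test). YY1 at the LDB1 peak went with no such shift, with medians of 83 bp (76 to 87) at the 966 shared peaks with YY1 and 82 bp (77 to 88) at the 1731 without.

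Sites that carried CTCF or YY1 as well show which neighbour RAD21 sat nearer to. At 528 shared peaks CTCF overlapped both LDB1 and RAD21. There RAD21 lay nearer to CTCF at 62.3% and nearer to LDB1 at 37.5% (33.5 to 41.7), with median distances of 72.5 bp to CTCF and 114 bp to LDB1, and the median distance between LDB1 and CTCF was 185 bp. At 896 shared peaks where YY1 overlapped both, the order was the other way round. RAD21 lay nearer to LDB1 at 63.5% (60.3 to 66.6) and nearer to YY1 at 35.7%, with median distances of 76 bp to LDB1 and 120 bp to YY1. Cohesin's peak thus lay nearer to CTCF than to LDB1 at most of the first sites, and nearer to LDB1 than to YY1 at most of the second.

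The second untreated subline gave a like offset at fewer sites. SMC3-AID cells had 446 of 8585 LDB1 peaks with RAD21 (5.20%, 4.75 to 5.68), where the RAD21 set held 15223 peaks, and the median offset was 89 bp (80 to 99). Of those 446 peaks, 364 (81.6%, 77.8 to 84.9) overlapped an LDB1 peak that had RAD21 in LDB1-AID cells too. Set size moves with this overlap, and its part in the difference between sublines was not tested.

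LDB1 peaks without RAD21 lay several kb from it, at a broad range of distances. The median distance to the nearest RAD21 peak was 9.42 kb (9.14 to 9.80), with quartiles at 3.84 and 20.6 kb. Within 1 kb lay 485 of the 8032 peaks (6.04%), within 10 kb 51.6% and within 25 kb 80.7%, while 168 peaks (2.09%) had no RAD21 within 100 kb. Counting gaps of at most 1 kb as shared would raise the LDB1 peaks with RAD21 from 2697 to 3447. Just inside the limit of overlap, with midpoints 300 to 399 bp apart, were 171 LDB1 peaks, and just outside, at 400 to 499 bp, were 115. YY1 was present at 32.2% of the first (25.6 to 39.5) and 25.2% of the second (18.2 to 33.9), whose intervals overlap.

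The RAD21 peak nearest to an unshared LDB1 peak usually carried CTCF, but less often than RAD21 peaks in general. The nearest RAD21 peak carried CTCF for 72.0% of the unshared LDB1 peaks (71.1 to 73.0), against 80.9% of all RAD21 peaks. It carried LDB1 of its own for 14.0% (13.2 to 14.7), against 8.15% of all RAD21 peaks. The median distance was 13.4 kb (13.0 to 13.9) to RAD21 with CTCF and 46.1 kb (44.2 to 48.6) to RAD21 without it. These sets hold 26833 and 6327 peaks, and the part of set size in this difference was not tested. For comparison, the nearest CTCF peak lay at a median of 6.76 kb (6.53 to 7.02) and the nearest YY1 peak at 13.5 kb (12.7 to 14.2). YY1 was within 1 kb of 19.9% of the unshared LDB1 peaks and CTCF within 1 kb of 11.0%. These shares include overlaps, which the choice of class removed for RAD21, so the 6.04% of RAD21 is not on the same footing.

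**Figure D2:**
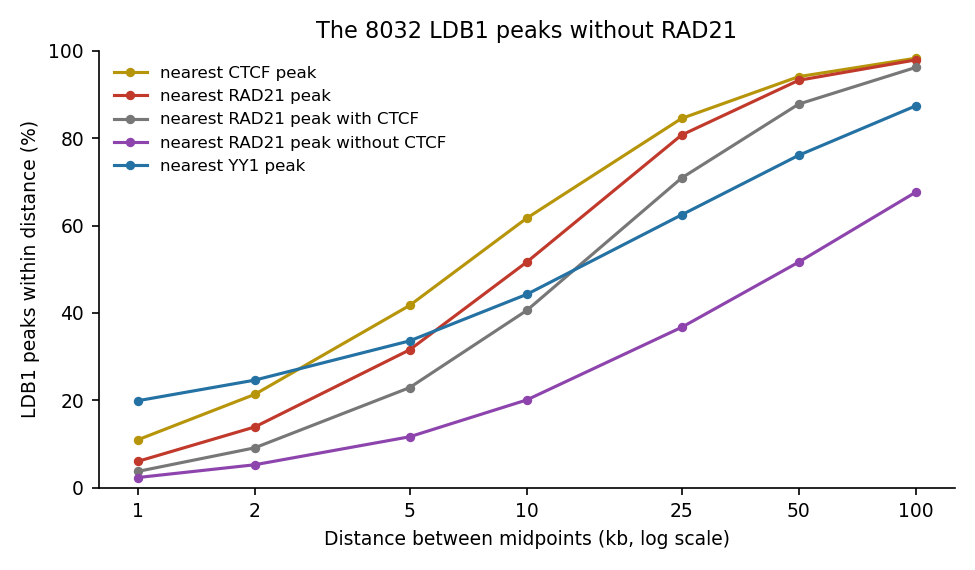
Percent of the 8032 LDB1 peaks without RAD21 (y axis) that have a peak of the named kind within a given midpoint distance in kb (x axis, log scale). RAD21 reaches 51.6% at 10 kb and 80.7% at 25 kb, and RAD21 without CTCF lies farthest, with a median of 46.1 kb. RAD21 without CTCF is a set of 6327 peaks, against 26833 with CTCF. Overlaps with YY1 and CTCF are counted, while those with RAD21 are left out by the choice of class.

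From the RAD21 side the distances were longer. The 30459 RAD21 peaks without LDB1 had a median of 42.7 kb (41.8 to 43.8) to the nearest LDB1 peak. The LDB1 set holds 10729 peaks against 33160 of RAD21, and the part of set size in this difference was not tested. Those without CTCF were nearer to LDB1, at 21.1 kb (20.01 to 22.4, 4253 peaks), than those with CTCF, at 47.5 kb (46.4 to 48.5, 26206 peaks). RAD21 peaks without CTCF thus lay nearer to LDB1 even where no overlap was counted.

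Shared LDB1 peaks lay in denser surroundings of their own kind. The nearest other LDB1 peak was 9.80 kb away (9.24 to 10.4) for LDB1 peaks with RAD21 and 17.3 kb away (16.6 to 18.0) for those without. Another LDB1 peak lay within 25 kb of 62.3% of all LDB1 peaks, of 73.0% with RAD21 and of 58.7% without (odds ratio 1.91, 1.73 to 2.10, adjusted p = 2.13e-41 in Fisher's exact test, higher on 20 of 20 chromosomes). With a neighbour distance of 10 kb the odds ratio was 1.63, and with 100 kb it was 3.01. The share was 75.5% (73.6 to 77.3) where the RAD21 partner had no CTCF and 65.0% (61.2 to 68.6) where it had CTCF.

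The nearest LDB1 neighbour carried RAD21 more often at LDB1 peaks with RAD21 than at those without, though in both classes most such neighbours lacked it. The nearest LDB1 peak carried RAD21 for 26.6% of all LDB1 peaks, for 39.3% of those with RAD21 (37.4 to 41.1) and for 22.4% of those without (21.5 to 23.3). The odds ratio was 2.24 (2.04 to 2.46, adjusted p = 1.55e-62 in Fisher's exact test), and the direction held on 19 of 20 chromosomes. Grouping and outcome are here the same RAD21 class, and peaks that are each other's nearest count from both ends. The p-value is therefore no independent support. RAD21 itself was also denser around shared peaks. The next RAD21 peak after an RAD21 peak with LDB1 lay at a median of 6.4 kb (5.98 to 6.86), against 10.4 kb (10.2 to 10.6) for RAD21 without LDB1. Over RAD21 peaks without CTCF the order was the other way round, with medians of 6.26 kb (5.69 to 6.87) with LDB1 and 4.43 kb (4.05 to 4.77) without.

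LDB1 peaks were next joined into chains, in which each LDB1 midpoint lies at most 25 kb from the next. The share with RAD21 was 18.0% among the 4043 LDB1 peaks that stood alone, 23.8% in chains of 2, 29.4% in chains of 3, 29.9% in chains of 4 and 39.9% (37.4 to 42.5) in chains of 5 or more. The values went up for RAD21 without CTCF. RAD21 without CTCF was present at 12.5% (11.6 to 13.6) of the lone LDB1 peaks and at 33.7% (31.3 to 36.2) of those in chains of 5 or more. RAD21 with CTCF was present at 5.44% (4.78 to 6.18) and 6.26% (5.11 to 7.64), whose intervals overlap. Of the LDB1 peaks with RAD21, the partner had no CTCF at 479 of 568 in chains of 5 or more (84.3%) and at 507 of 727 standing alone (69.7%), a comparison chosen after the values were seen (odds ratio 2.34, 1.77 to 3.08, p = 7.89e-10 in a two-sided Fisher's exact test).

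**Figure D3:**
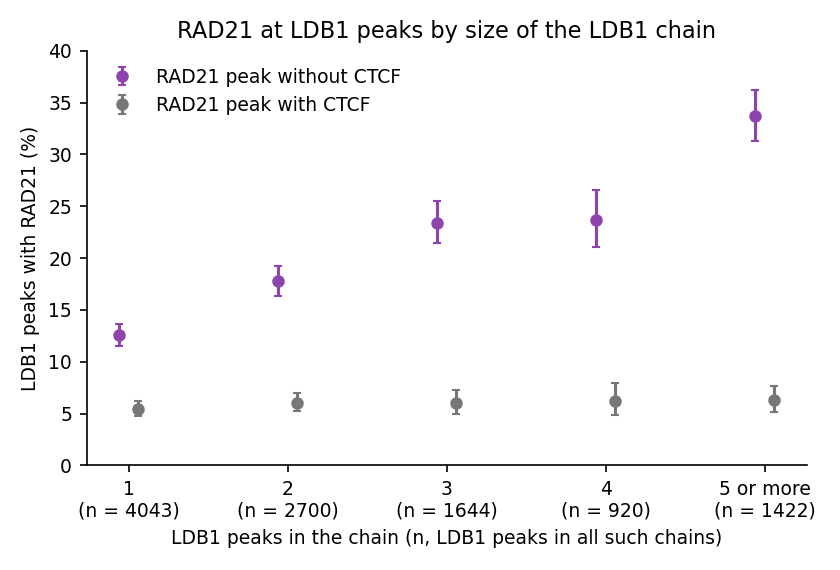
Percent of LDB1 peaks that overlap a RAD21 peak (y axis), split by CTCF at that RAD21 peak, against the number of LDB1 peaks in the chain (x axis, with the number of LDB1 peaks below). Bars are Wilson 95% intervals. RAD21 without CTCF goes from 12.5% to 33.7% while RAD21 with CTCF stays between 5.44% and 6.26%.

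Long chains were mostly mixed. Of the 230 chains of 5 or more LDB1 peaks, 192 held LDB1 peaks of both classes, 34 held no LDB1 peak with RAD21 and 4 held only LDB1 peaks with RAD21. The mixed share was 30.6% in chains of 2, 53.6% in chains of 3, 65.2% in chains of 4 and 83.5% in these. A longer chain has more room to hold both classes, and the share that length alone would give was not worked out. Between consecutive LDB1 peaks, the median gap was 16.3 kb where both carried RAD21 (953 gaps), 32.8 kb where 1 did (3476 gaps) and 52.9 kb where neither did (6280 gaps). A further RAD21 peak between them was absent from 57.3%, 42.3% and 34.1% of these gaps. Among gaps of at most 25 kb the shares were 76.0% (72.4 to 79.4), 75.2% (73.0 to 77.4) and 75.8% (74.0 to 77.5), so at short range most neighbouring LDB1 peaks had no RAD21 peak between them, with overlapping intervals for the 3 kinds of gap.

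The 3 chains with the most LDB1 peaks that carried RAD21 lay on chromosomes 12, 1 and 13. Chains with 7 such peaks numbered 3, of which those on chromosomes 1 and 13 come first by position. Positions are in the mouse build mm9, counted from 1, and no gene is named because the annotation at hand is of another build. In chr12:78157757-78201112, 8 of 13 LDB1 peaks carried RAD21 at offsets of 3 to 269 bp. The region held 13 RAD21 midpoints, 3 of them with CTCF, and its nearest miss was an LDB1 peak 0.462 kb from RAD21. YY1 was present at 6 of its 13 LDB1 peaks, against 20.4% of all LDB1 peaks, and 2 LDB1 peaks were still called after LDB1 degradation. In chr1:152976139-153062655, 7 of 12 LDB1 peaks carried RAD21 at offsets of 65 to 260 bp, and 0 of the 8 RAD21 midpoints inside carried CTCF. YY1 was present at 1 LDB1 peak there. Of all LDB1 peaks with RAD21, 76.7% met RAD21 without CTCF and 35.8% carried YY1. In chr13:43277825-43356408, 7 of 8 LDB1 peaks carried RAD21 at offsets of 34 to 390 bp, among 16 RAD21 midpoints of which 10 carried CTCF. CTCF was itself present at 2 of these LDB1 peaks, the first and the last of the chain. All 8 were found in SMC3-AID cells, against 8 of 13 in the chromosome 12 chain and 5 of 12 in the chromosome 1 chain.

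The 3 longest chains without RAD21 at any LDB1 peak were taken as the opposite case. In chr16:34031876-34079174, 9 LDB1 peaks held 2 RAD21 midpoints among them, and the nearest RAD21 peak, just beyond the last LDB1 peak, was 3.84 kb from it. In chr5:114351969-114453609, 9 RAD21 midpoints, 7 with CTCF, lay between 7 LDB1 peaks without overlapping any of them, the nearest at 0.463 kb. In chr6:7682017-7764532, 7 LDB1 peaks spanned 82.5 kb with 2 RAD21 midpoints. The nearest LDB1 peaks lay 0.572 and 0.643 kb from RAD21, just past the limit of overlap, and the 3 farthest lay 43.2, 37.1 and 30.2 kb from it. Chains of 7 without RAD21 numbered 5, of which the chromosome 5 and 6 chains come first by position. After LDB1 degradation, 0 of the 23 LDB1 peaks in these 3 chains and 7 of the 33 in the first 3 chains were called. All 7 were among the 22 LDB1 peaks with RAD21 there. The share was 7.77% of all LDB1 peaks and 4.18% of all those without RAD21. It was 20.2% where the RAD21 partner had no CTCF and 12.7% where it had CTCF. The chains were chosen by RAD21, so this contrast is not separate from the difference between the classes. LDB1 of untreated SMC3-AID cells was present at 14 of the 23 and 21 of the 33, both near the 67% of all LDB1 peaks.

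**Figure D4:**
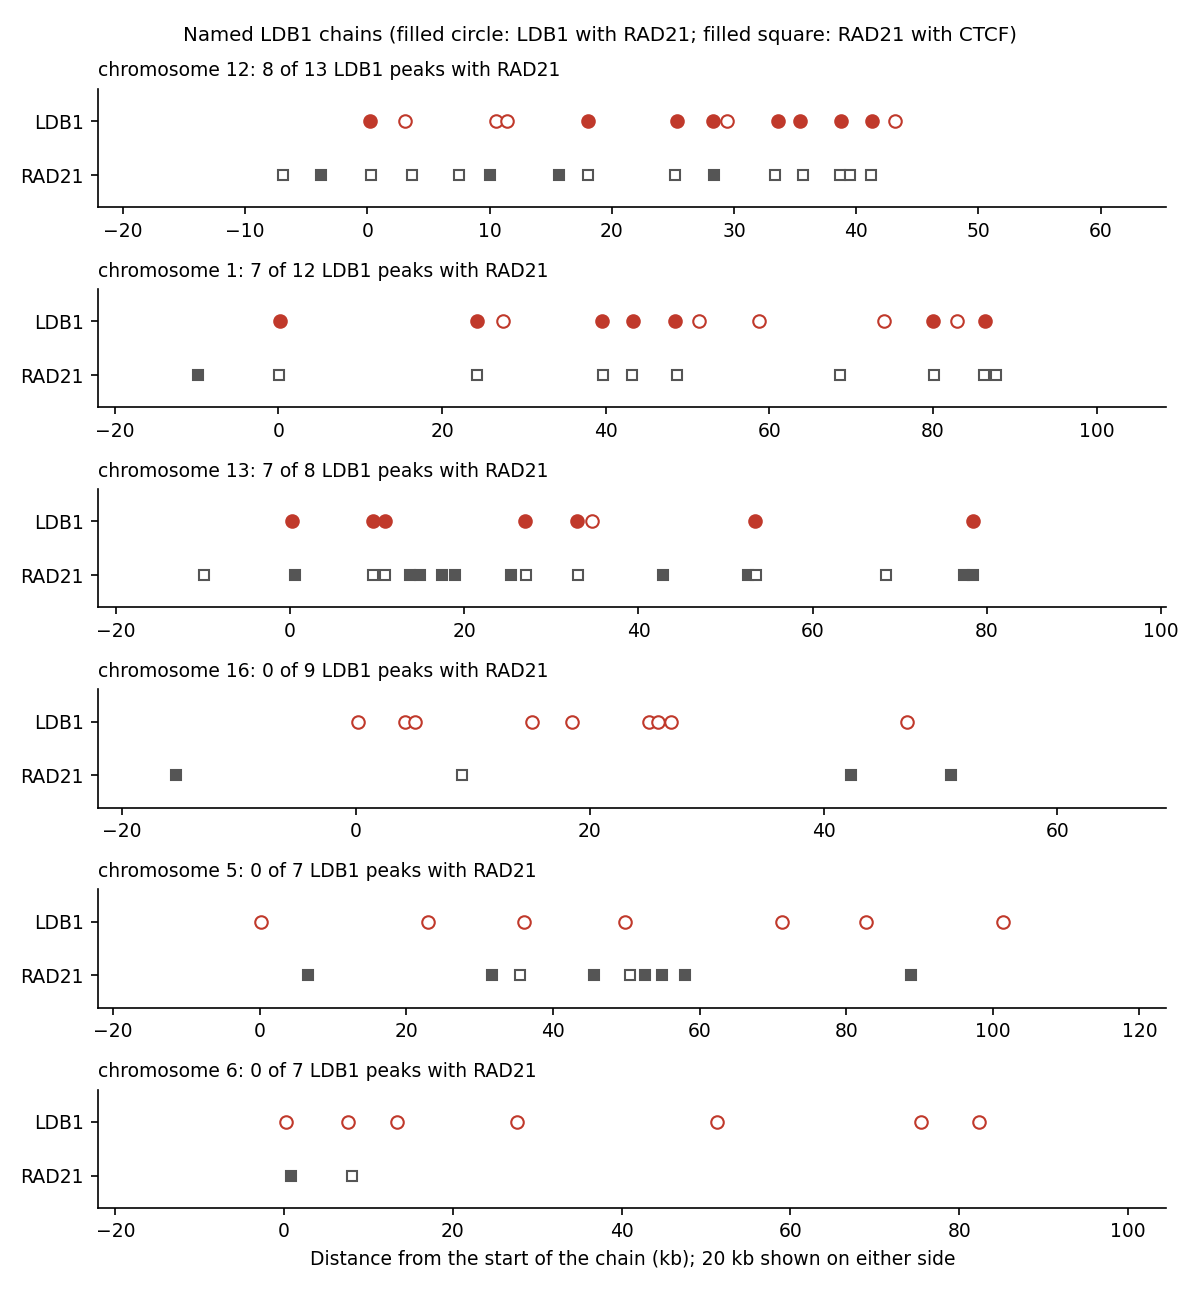
Maps of the 6 named chains, drawn to scale by distance in kb from the start of each chain, with 20 kb on either side. Circles are LDB1 peaks, filled where RAD21 overlaps, and squares are RAD21 peaks, filled where CTCF overlaps. On chromosome 1 the 8 RAD21 peaks inside the chain are all open squares, and on chromosome 5 the 9 RAD21 peaks lie between the LDB1 peaks.

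The LDB1 peaks farthest from RAD21 were single sites. The LDB1 peak at chr1:102076625-102077024 lay 2371 kb from RAD21 and 2437 kb from the next LDB1 peak, carried YY1 and was still called after LDB1 degradation. Those at chr4:79648363-79648762 and chr4:36528583-36528982 lay 1176 and 1164 kb from RAD21, and carried no YY1. LDB1 of SMC3-AID cells was present at 0 of these 3 peaks, and at 41.7% of the 168 LDB1 peaks that lay 100 kb or more from RAD21.

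YY1 went with RAD21 at LDB1 peaks. It was present at 20.4% of all LDB1 peaks, at 35.8% (34.0 to 37.6) of those with RAD21 and at 15.2% (14.5 to 16.0) of those without (odds ratio 3.1, 2.81 to 3.43, adjusted p = 7.63e-107 in Fisher's exact test, 20 of 20 chromosomes). By the RAD21 partner it was 32.8% (29.2 to 36.6) with CTCF and 36.7% (34.7 to 38.8) without. No difference by offset was detected within the overlap: 36.7% of pairs within 100 bp and 34.6% of pairs farther apart carried YY1, a difference of 2.05 percentage points with an interval from -1.62 to 5.68 (adjusted p = 0.290 in Fisher's exact test, higher on 10 of 20 chromosomes). With the RAD21 set of untreated SMC3-AID cells the same comparison was called (odds ratio 2.08, 1.45 to 2.99, adjusted p = 0.000106 in Fisher's exact test). Beyond the overlap it was 23.8% (20.2 to 27.7) at 400 to 999 bp, 17.1% at 1 to 5 kb, 15.2% at 5 to 25 kb, 10.6% at 25 to 100 kb and 6.55% (3.70 to 11.3) from 100 kb on.

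YY1 also went with LDB1 at RAD21 peaks, and by a different size with and without CTCF. YY1 was present at 10.7% of all RAD21 peaks, at 35.0% with LDB1 and at 8.56% without (odds ratio 5.76, 5.27 to 6.29, adjusted p = 3.49e-280 in Fisher's exact test, 20 of 20 chromosomes). With the RAD21 set of untreated SMC3-AID cells the odds ratio was 12.9. Over RAD21 peaks without CTCF the shares were 36.1% (34.0 to 38.2) and 26.4% (25.1 to 27.7), with an odds ratio of 1.58 (1.41 to 1.76, adjusted p = 6.81e-15 in Fisher's exact test). Over RAD21 peaks with CTCF they were 31.6% (28.1 to 35.3) and 5.67% (5.40 to 5.96), with an odds ratio of 7.67 (6.43 to 9.15).

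The untreated SMC3-AID sets did not enter the choice of classes and were read at the same positions. LDB1 of SMC3-AID cells was present at 67% of all LDB1 peaks, at 75.8% (74.2 to 77.4) of those with RAD21 and at 64.1% (63.0 to 65.1) of those without (odds ratio 1.76, 1.59 to 1.94, adjusted p = 4.19e-30 in Fisher's exact test, 20 of 20 chromosomes). It was 78.4% (76.6 to 80.1) where the RAD21 partner had no CTCF and 67.4% (63.6 to 70.9) where it had CTCF. Shared LDB1 peaks whose LDB1 was also found in SMC3-AID cells lay nearer to RAD21 of LDB1-AID cells. Of these, 60.1% were within 100 bp, against 51.5% of those not found (odds ratio 1.42, 1.19 to 1.69, adjusted p = 0.000128 in Fisher's exact test), with medians of 79 and 98 bp. RAD21 was not required in SMC3-AID cells here, and the part of CTCF at the RAD21 partner was not tested. LDB1 peaks 100 kb or more from RAD21 were found least often, at 41.7% (34.5 to 49.2).

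RAD21 showed the reverse. RAD21 of SMC3-AID cells was present at 43.4% of all RAD21 peaks, at 18.0% (16.6 to 19.5) of those with LDB1 and at 45.6% (45.1 to 46.2) of those without (odds ratio 0.262, 0.237 to 0.289, adjusted p = 1.43e-185 in Fisher's exact test, lower on 20 of 20 chromosomes). The gap was smaller within RAD21 peaks of 1 CTCF class. Over RAD21 peaks without CTCF the shares were 10.1% and 13.5% (odds ratio 0.720, 0.608 to 0.851, adjusted p = 0.000155 in Fisher's exact test), and over those with CTCF 44.2% and 50.8% (odds ratio 0.766, 0.653 to 0.898). Over all sites where LDB1 and RAD21 met, the LDB1 peak was thus found in SMC3-AID cells more often than elsewhere. The RAD21 peak was found there less often. Where the RAD21 partner carried CTCF, the LDB1 share of 67.4% (63.6 to 70.9) had an interval overlapping that of LDB1 peaks without RAD21 (63.0 to 65.1).

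LDB1 peaks still called after 4 h of LDB1 degradation were more frequent among LDB1 peaks with RAD21 than among those without, but not right at the limit of overlap. They were 7.77% of all LDB1 peaks. Among shared peaks the share was 19.4% at offsets of 0 to 49 bp, 20.7% at 50 to 99 bp, 17.6% at 100 to 199 bp and 14.8% (12 to 18.3) at 200 to 399 bp. It was 7.44% (5.42 to 10.1) at 400 to 999 bp and 4.10%, 3.57% and 4.49% in the bins from 1 to 100 kb, and 7.74% (4.58 to 12.8) of the 168 peaks farther away. Right at the limit it was 11.7% (7.70 to 17.4) at 300 to 399 bp and 13.0% (8.07 to 20.4) at 400 to 499 bp, whose intervals overlap. Within the overlap, 19.9% of pairs within 100 bp and 16.5% of those farther apart were kept (odds ratio 1.25, 1.03 to 1.53, adjusted p = 0.0300 in Fisher's exact test, higher on 15 of 20 chromosomes). Over LDB1 peaks without CTCF the odds ratio was 1.07 (adjusted p = 0.679 in Fisher's exact test), so the call ended there. By the partner, 20.2% (18.5 to 22) were kept where RAD21 had no CTCF and 12.7% (10.4 to 15.6) where it had CTCF.

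**Figure D5:**
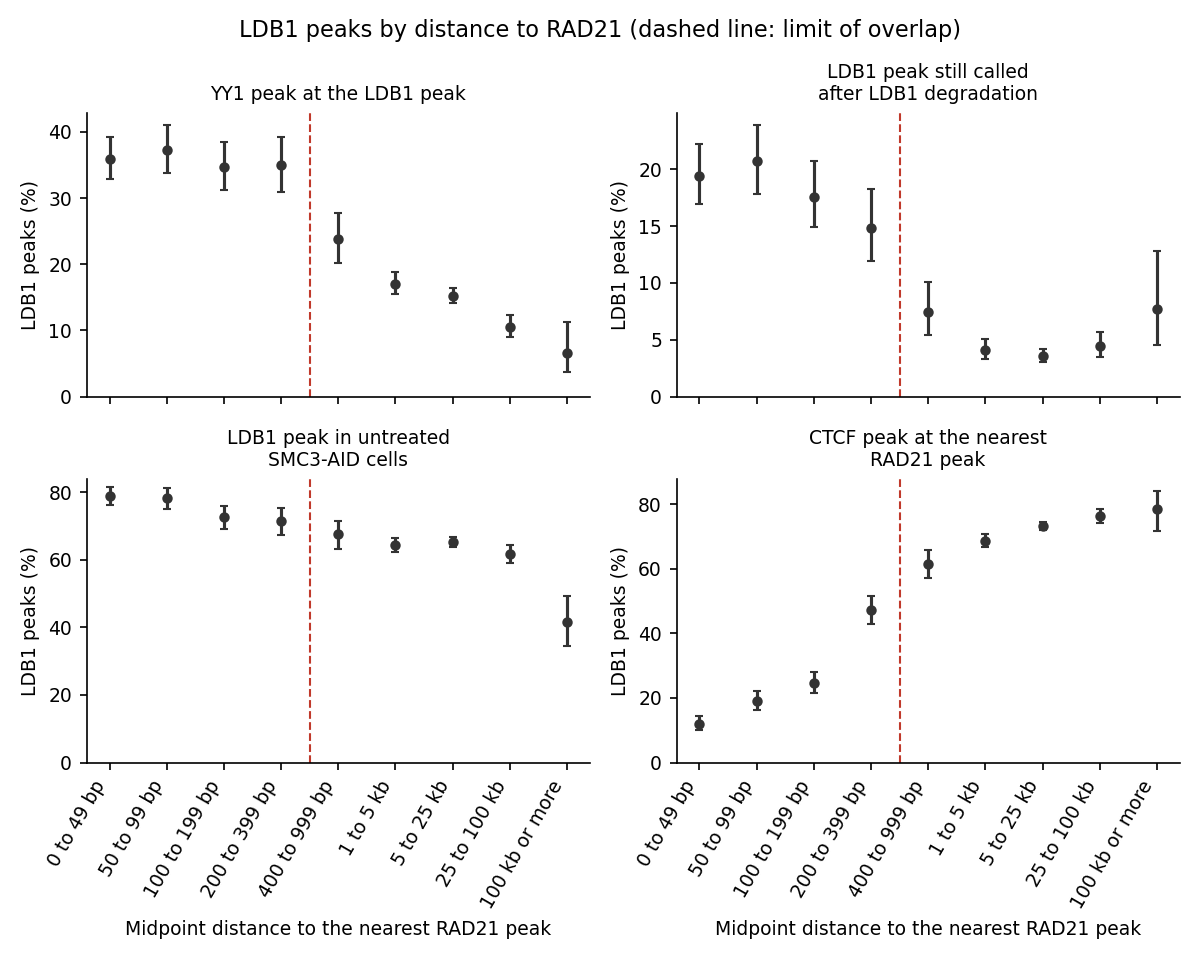
LDB1 peaks in 9 bins of midpoint distance to the nearest RAD21 peak (x axis), with the percent that have the property named above each panel (y axis) and Wilson 95% intervals. The dashed line marks the limit of overlap. YY1 stays between 34.7% and 37.3% inside it and goes to 23.8% just outside, and CTCF at the nearest RAD21 peak climbs from 12% to 78.6%.

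CTCF at the nearest RAD21 peak went up with the distance, both inside the overlap and beyond it. It was 12% (10.02 to 14.4) at offsets of 0 to 49 bp, 19.1% at 50 to 99 bp, 24.6% at 100 to 199 bp and 47.2% (42.8 to 51.6) at 200 to 399 bp. It reached 61.6% at 400 to 999 bp and 78.6% (71.8 to 84.1) from 100 kb on, near the 80.9% of all RAD21 peaks. The RAD21 peaks closest to an LDB1 midpoint were thus the ones that most rarely carried CTCF.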

How the data were processed

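The peak lists were used as deposited by the authors. Each holds a chromosome, a start and an end in bp, with no score, and per the labels each combines all replicates of its group. The submitters' processing notes name the build mm9 and the tools Bowtie2, MACS2 (2.2.9.1) and deepTools (3.5.1). Caller settings and the rule that made a consensus are not given in the sources used here. Depth and peak height are unknown, so a missing peak may be a site below the calling threshold.

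Peaks on chromosomes 1 to 19 and X were compared by midpoints in Python 3.11.15 (numpy 2.4.6, scipy 1.17.1). Overlaps of at least 1 bp matched bedtools 2.31.1 and were tested on simulated data. Differences in class shares were tested at a threshold of 0.05 with a two-sided Fisher's exact test. Named positions are the 3 chains of LDB1 peaks (gaps of at most 25 kb) with the most LDB1 peaks carrying RAD21, the 3 longest chains with none, and the 3 LDB1 peaks farthest from RAD21, with ties broken by position. The members, comparisons and named positions were chosen with earlier results of these data known. Comparisons of the offset by CTCF and by the second subline, and those split by CTCF or YY1, were added after seeing the data. Planned promoter and motif shares were not run, and no sequence is shown, because no genome of this build was used here.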

Additional observations from a re-analysis of the deposited data

Results flagged for a closer look

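Outside chromosomes 1 to 19 and X, which no comparison used, lay 12 LDB1 peaks and 44 RAD21 peaks. Of these, 2 LDB1 and 5 RAD21 peaks were mitochondrial, and 3 LDB1 and 3 RAD21 peaks overlapped the other protein.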

How the results depend on the processing

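Of 92 recomputed values, 81 were held to be unchanged: tests by direction and side of the threshold, whatever the size of the odds ratio, counts when within 1.5 times, and medians when inside the interval of the reported median. With the RAD21 set of untreated SMC3-AID cells in place of the LDB1-AID set, 504 LDB1 peaks had RAD21, the median offset was 111 bp, the median distance of unshared LDB1 peaks was 22146 bp and YY1 depended on the offset (odds ratio 2.08, adjusted p = 0.000106 in Fisher's exact test). That set is smaller, and other causes were not tested. With only RAD21 peaks without CTCF counted as RAD21, the median offset was 70 bp and the median distance 44734.5 bp. LDB1 persistence by offset lost its call with at least 50% of both peaks in common (odds ratio 1.15), an offset split at 50 bp (1.08), LDB1 peaks without YY1 (1.17) and LDB1 peaks without CTCF (1.07); its adjusted p over these was 0.275 to 0.679. With a gap of at most 1 kb counted as overlap for every pair of sets, YY1 by offset turned to 0.987. It was not called in either setting. The cause was not tested. No paired analysis was possible because the replicates had been combined in each set, and for the same reason no replicate could be left out. Peaks have no depth or height here, so the absence of a RAD21 peak is not the absence of cohesin.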
